A study of Homo sapiens with 6 samples.

Results

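The 31 genes described here belong to the response of human cells to low oxygen, without the enzymes of glycolysis. They comprise the subunits of the hypoxia-inducible factors (HIF), the enzymes and the ligase component that sense oxygen, and genes known as HIF targets. Members were chosen by gene symbol from a list, and all 31 were found among the 27968 genes of the tables. This list and the other gene lists below were drawn up with earlier results of these data known. Counts over them are therefore descriptions and no independent support. Each passed the filter on low counts in the comparison below. A gene can pass it on the counts of a single line, as CA9 did on those of A549 and LOX on those of H23. They were measured by RNA sequencing in A549 and H23, human cell lines kept as models of lung adenocarcinoma, with 3 independent cultures of each line. A549 was grown in DMEM and H23 in RPMI 1640 (spelled RPM1640 in the labels), both with fetal bovine serum. No culture was treated, and no oxygen level is given in the labels. Line and medium changed together and cannot be told apart. RNA was taken near confluence and sequenced after removal of ribosomal RNA. By its title, the study asks how the transcriptomes of the lines differ.

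HIF is a pair of proteins, an alpha subunit that is destroyed when oxygen is present and a beta subunit that is stable. Prolyl hydroxylases mark the alpha subunit, the VHL protein recognises the mark, and the ubiquitin system then removes the subunit. When oxygen is short the alpha subunit accumulates, pairs with the beta subunit and binds a short DNA motif near its target genes. Control of the alpha subunit therefore lies largely in the protein, which RNA levels do not show. In lung tumours the pathway is known for its part in vessel growth, acid handling and matrix remodelling.

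The core of the HIF binding motif is ACGTG or GCGTG. It was searched on both strands of the RefSeq promoter windows of build GRCh38.p14, which span 250 bases before to 50 after a gene's start. Matches that overlap, as in CACGTG, which reads as ACGTG on both strands, were counted as 1 place. Windows were present for 25 members, 32 windows in all, and 24 of them (75%) held the motif, against 60% of 16634 windows of the genes tested here and 48.4% of all 35116 windows. The form ACGTG alone was in 46.9% of the members' windows, 24.9% of those of tested genes and 21.4% of all. A match of letters is a description and not a measured binding site. NDRG1, BNIP3L, VEGFA, VHL, LOXL2 and STC1 had no entry. The 8 stretches of 100 bases upstream of the start are examples of members on each side of the comparison whose windows hold the motif, with each match in capitals. ANKRD37 (chr4:185396641-185396740, plus strand), FAM162A (chr3:122384070-122384169, plus strand), BNIP3 (chr10:131981995-131982094, minus strand), P4HA1 (chr10:73096901-73097000, minus strand) and LOX (chr5:122078345-122078444, minus strand) were lower in A549. CA9 (chr9:35673828-35673927, plus strand), PLOD2 (chr3:146161312-146161411, minus strand) and EGLN1 (chr1:231422288-231422387, minus strand) were higher in A549.
ANKRD37: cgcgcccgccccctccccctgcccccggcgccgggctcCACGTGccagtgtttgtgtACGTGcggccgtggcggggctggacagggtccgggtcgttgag
FAM162A: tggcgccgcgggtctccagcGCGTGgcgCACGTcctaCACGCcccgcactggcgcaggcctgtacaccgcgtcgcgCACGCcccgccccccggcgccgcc
BNIP3: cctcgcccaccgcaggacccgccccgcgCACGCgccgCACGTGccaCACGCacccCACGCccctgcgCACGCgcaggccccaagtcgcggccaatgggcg
P4HA1: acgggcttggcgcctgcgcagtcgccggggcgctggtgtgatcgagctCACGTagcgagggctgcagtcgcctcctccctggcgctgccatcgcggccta
LOX: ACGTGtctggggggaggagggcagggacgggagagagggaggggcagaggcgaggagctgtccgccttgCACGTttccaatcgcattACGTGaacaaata
CA9: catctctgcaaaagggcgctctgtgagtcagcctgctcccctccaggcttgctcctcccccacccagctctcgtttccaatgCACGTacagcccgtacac
PLOD2: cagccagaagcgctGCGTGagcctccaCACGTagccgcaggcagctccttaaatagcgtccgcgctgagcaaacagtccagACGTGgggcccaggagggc
EGLN1: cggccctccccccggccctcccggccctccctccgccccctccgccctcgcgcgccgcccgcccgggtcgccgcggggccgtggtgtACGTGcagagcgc
In these stretches BNIP3 held 5 places, FAM162A 4, LOX and PLOD2 3 each, ANKRD37 2, and P4HA1, CA9 and EGLN1 1 each. No match was found in the windows of EGLN3, HIF1AN, ARNT, P4HA2 and TMEM45A.

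The A549 libraries held 23399562 to 25348083 estimated read counts and the H23 libraries 29395795 to 42421642. A floor of 3 counts was worth 0.118 to 0.128 CPM (read counts scaled to library size) in an A549 library and 0.0707 to 0.102 CPM in an H23 library. H23 replicate 1 stood apart from the other H23 libraries, with 17.2% of tested genes more than 1.5-fold above and 10.5% more than 1.5-fold below their mean. Gene lengths (RSEM's effective lengths), weighted by read counts, averaged 3297 to 3339 bases in A549. They averaged 2811, 2946 and 2969 bases in H23 replicates 1, 2 and 3. The summed level of 7 epithelial markers was 5763 to 5978 TPM (a level scaled for length and depth) in A549 and 3984 to 4132 TPM in H23. Of these markers, KRT7, KRT19, CLDN4 and KRT8 were higher in A549, EPCAM and CDH1 higher in H23, and KRT18 did not pass, with KRT7 at 2416 to 2625 TPM in A549 and 1.11 to 1.36 TPM in H23. Summed levels of 6 endothelial markers were 10.5 to 11.6 TPM in A549 and 3.79 to 7.31 TPM in H23, almost all of it ESAM, with PECAM1 and VWF at or near 0. The 6 leukocyte markers summed to 6.19 to 7.08 TPM in A549 and 6.58 to 13.6 TPM in H23, almost all of it CD14 and CD68. Both were present in every library and did not pass between the lines (edgeR adjusted p = 0.445 and 0.263). PTPRC and CD3E were at or near 0. The 6 fibroblast markers summed to 1.92 to 2.53 TPM in A549 and 5.83 to 9.25 TPM in H23, most of it COL1A1, which was higher in H23 as was LUM (log2 -1.44 and -1.28, edgeR adjusted p = 0.000177 and 0.00512), and with DCN at 0 in every library. The part of these markers in the members' results was not tested. Fewer copies per cell and fewer cells carrying an RNA cannot be told apart in such bulk libraries.

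The hypoxia response did not move one way between the lines. With edgeR (quasi-likelihood, threshold 0.05 on the adjusted p), 9 of the 31 members were called on the A549 side, 16 on the H23 side, and 6 failed the test. Over all 15426 tested genes 77.2% were called, 37.6% on the A549 side and 39.6% on the H23 side, so the total of 25 called members is about what any set of genes would give. At least a 2-fold difference was called for 7 members on the A549 side and 12 on the H23 side, against 24.5% and 25.6% of all tested genes. The median log2 fold, A549 over H23, was -0.69 over the members and -0.03 over all tested genes. For 25 members the 3 libraries of one line lay wholly above or below those of the other, as they did for 82.1% of tested genes. The members higher in A549 were HIF1A, VHL, the 3 EGLN genes, CA9, CA12, PLOD2 and ADM.

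**Figure D1:**
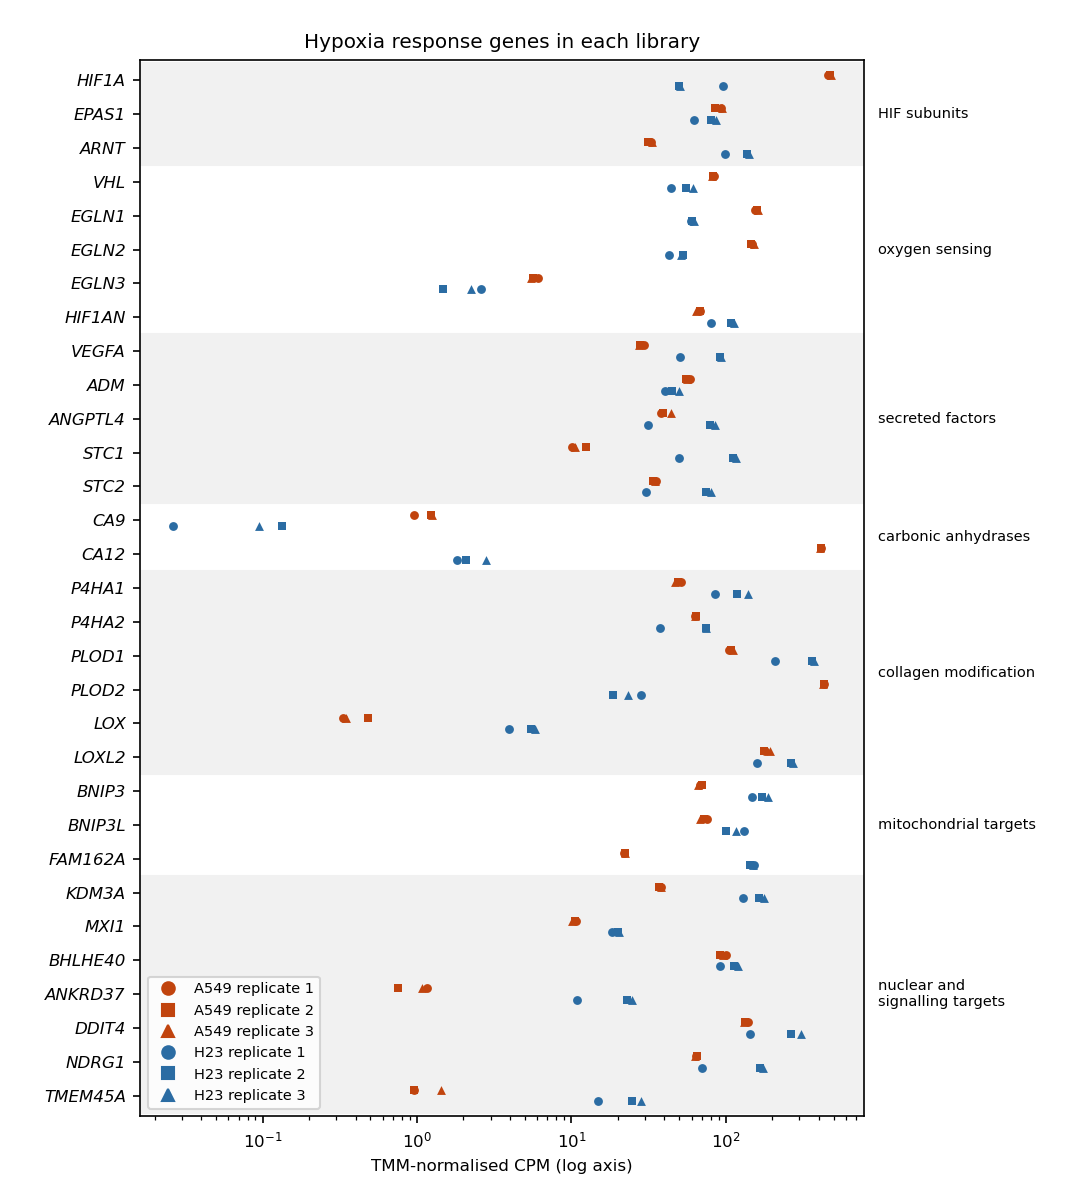
TMM-normalised CPM on a log axis for the 31 genes, grouped by role, with A549 libraries above H23 libraries in each row and 1 symbol per replicate. The A549 replicates lie on top of each other for most genes, while H23 replicate 1 (blue circles) lies left of the other H23 libraries for most targets and right of them for HIF1A, at 96.6 against 50.1 and 50.7 CPM.

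**Figure D2:**
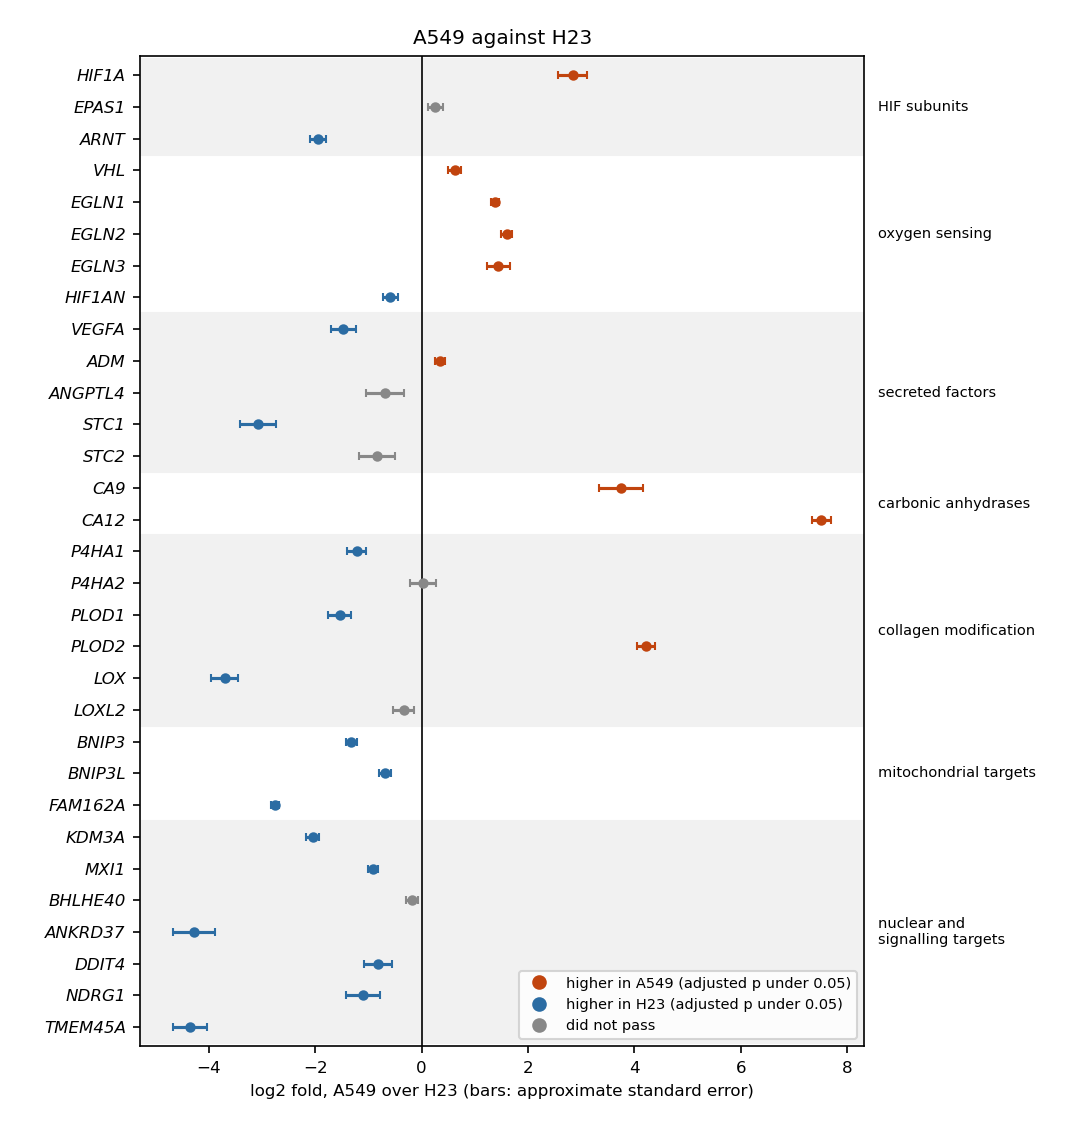
Log2 fold, A549 over H23, with approximate standard errors as bars and genes grouped by role. CA12 (7.51), PLOD2 (4.21) and CA9 (3.74) lie far to the A549 side, and TMEM45A (-4.35), ANKRD37 (-4.28) and LOX (-3.70) far to the H23 side.

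The number of members called and the size of their folds depended on the libraries kept and on the scaling. Under some alternatives the direction changed for 6 members, ADM, ANGPTL4, BHLHE40, EPAS1, LOXL2 and P4HA2. Without H23 replicate 1 all 31 members passed, 10 on the A549 side and 21 on the H23 side, beside 44% and 44.6% of all genes. On log2(TPM + 1) with limma, where the median of all genes moved to -0.41, 7 members passed on the A549 side and 20 on the H23 side, beside 25.1% and 54% of all genes. With a trend of each library with GC content and gene length removed, the counts were 12 and 14, beside 40.4% and 39.5% of all genes. That removal also moved the log2 folds of EGLN2 to 2.24, CA9 to 4.33, LOX to -4.54, ANKRD37 to -4.95 and TMEM45A to -5.23. On log2(TPM + 1), CA12 stood at 5.86, CA9 at 0.79, EGLN1 at 0.79, EGLN3 at 0.52, LOX at -1.26 and PLOD2 at 3.55. That scale understates the change of low genes, and on log2(TPM + 0.1) CA9 stood at 2.38 and LOX at -3.17. EGLN1, which was not as low (12.68 to 25.95 TPM), stood at 0.83 there.

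The HIF subunits differed in opposite directions. HIF1A, the alpha subunit found in most cell types, stood at 461, 473 and 481 CPM in the A549 libraries and at 96.6, 50.1 and 50.7 CPM in H23 replicates 1, 2 and 3. The groups did not overlap, and H23 replicate 1 held nearly as much again as either other H23 library. The log2 fold was 2.84 ± 0.27 (approximate SE, n = 3 each, edgeR adjusted p = 7.84e-05), and 1.87 once the trend with GC content and length was removed. ARNT, the beta subunit that alpha subunits need as a partner, stood at 32.7, 31.6 and 33.3 CPM in A549 and at 98.6, 137 and 142 CPM in H23. Every A549 library lay below every H23 library, with a log2 fold of -1.95 ± 0.15 (edgeR adjusted p = 2.76e-05). EPAS1, which encodes the alpha subunit HIF-2 alpha, known from endothelium and type II alveolar cells, stood at 93.6, 85.8 and 94.5 CPM in A549 and at 61.9, 80.5 and 86.2 CPM in H23. Its libraries overlapped, and the log2 fold of 0.26 ± 0.13 did not pass (edgeR adjusted p = 0.116, with 9.84e-05 to 0.39 across the alternatives). EPAS1 was called higher in A549 with the GC and length trend removed (0.58, edgeR adjusted p = 9.84e-05) and without H23 replicate 1 (0.13, edgeR adjusted p = 0.029).

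Per length, the balance of the alpha subunits differed between the lines. EPAS1 made up 13.6%, 12.3% and 13.2% of the summed TPM of HIF1A and EPAS1 in A549, against 33.2%, 55.5% and 56.9% in H23 replicates 1, 2 and 3. The groups did not overlap, with means of 13.1% ± 0.663 in A549 and 48.6% ± 13.3 in H23 (SD, n = 3 each). An exact two-sided permutation test gave p = 0.1, the smallest that 3 libraries against 3 allow. By deposited TPM, HIF1A was thus the leading alpha transcript in each A549 library and in H23 replicate 1, and EPAS1 in H23 replicates 2 and 3. The GC content was 36.4% for HIF1A and 52.6% for EPAS1. In H23 replicate 1, HIF1A deviated from the other H23 libraries by 0.94 in log2 CPM, and by 0.25 with the GC and length trend removed. EPAS1 deviated by -0.43 and -0.12. No share, here or below, was recomputed with that trend removed, so the part of base composition was not tested.

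The prolyl hydroxylase genes, whose enzymes mark HIF for destruction, all rose in A549. EGLN1, which encodes the main oxygen sensor PHD2, stood at 154, 160 and 162 CPM in A549 and at 59.8, 60.5 and 61.9 CPM in H23. The log2 fold was 1.39 ± 0.07 (n = 3 each, edgeR adjusted p = 4.55e-06), and the H23 libraries lay within 3 CPM of each other. EGLN2, which encodes PHD1, stood at 148, 146 and 152 CPM in A549 and at 43.0, 52.6 and 51.6 CPM in H23 (log2 1.60 ± 0.10, edgeR adjusted p = 1.1e-05). Reads of EGLN2 can be shared with a readthrough transcript of the neighbouring RAB4B, so its level carries that uncertainty. EGLN3, which encodes PHD3 and is itself a well-known HIF target, was low in both lines, at 6.07, 5.67 and 5.48 CPM in A549 and 2.59, 1.47 and 2.24 CPM in H23 (log2 1.44 ± 0.22, edgeR adjusted p = 0.000724). Per length EGLN2 was the leading transcript of the family in every library, at 75.0% ± 0.316 of the summed TPM in A549 and 71.8% ± 2.71 in H23 (SD, n = 3 each). EGLN3 was 2.26% ± 0.130 and 2.68% ± 1.13 of it in A549 and H23, and its share did not separate the lines (exact two-sided permutation p = 0.7). The EGLN3 share was 0.42 percentage points lower in A549, a difference of -0.42, and 0.18 points higher without H23 replicate 1.

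Of the other sensing genes, VHL rose and HIF1AN fell in A549. VHL, the ubiquitin ligase component that recognises hydroxylated HIF, stood at 83.8, 82.7 and 81.4 CPM in A549 and at 44.4, 55.6 and 61.1 CPM in H23 (log2 0.62 ± 0.13, edgeR adjusted p = 0.00321). That call was lost on log2(TPM + 1), where the difference was 0.08 (limma adjusted p = 0.655, with 2.55e-09 to 0.655 across the alternatives). HIF1AN, the asparagine hydroxylase that blocks the transactivation domain of HIF, stood at 68.2, 67.6 and 64.5 CPM in A549 and at 80.4, 108 and 113 CPM in H23. The groups did not overlap, with a log2 fold of -0.59 ± 0.14 (edgeR adjusted p = 0.00618).

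Among secreted factors, VEGFA and STC1 fell and ADM rose in A549. VEGFA, the main inducer of vessel growth, stood at 29.6, 27.7 and 27.5 CPM in A549 and at 50.7, 91.1 and 93.3 CPM in H23. The log2 fold was -1.47 ± 0.23 (n = 3 each, edgeR adjusted p = 0.00093) and -0.85 once the trend with GC content and length was removed. STC1, the glycoprotein hormone stanniocalcin, showed the widest gap of the group, at 10.1, 12.5 and 10.5 CPM in A549 and 49.4, 112 and 117 CPM in H23 (log2 -3.07 ± 0.34, edgeR adjusted p = 0.000162). ADM, which encodes the vasodilator peptide adrenomedullin, stood at 59.0, 55.6 and 56.4 CPM in A549 and at 40.4, 45.04 and 49.4 CPM in H23. This smaller difference, a log2 fold of 0.34 ± 0.10 (edgeR adjusted p = 0.0155, with 8.53e-06 to 0.175 across the alternatives), turned to -0.19 on log2(TPM + 1), where it did not pass, and was 0.93 with the GC and length trend removed.

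STC2 and ANGPTL4, 2 other secreted members, did not pass. STC2, a relative of STC1, stood at 35.1, 34.0 and 34.6 CPM in A549 and at 30.5, 74.4 and 80.5 CPM in H23 (log2 -0.84 ± 0.34, edgeR adjusted p = 0.0546). ANGPTL4, an inhibitor of lipoprotein lipase, stood at 37.9, 39.1 and 44.2 CPM in A549 and at 31.2, 78.5 and 85.6 CPM in H23 (log2 -0.69 ± 0.35, edgeR adjusted p = 0.111). For both, H23 replicate 1 lay below all A549 libraries and the other H23 libraries above them. Without H23 replicate 1 the log2 folds were -1.17 and -1.03, with edgeR adjusted p of 7.85e-17 and 6.7e-14, where the alternatives spanned 7.85e-17 to 0.165 for STC2 and 6.7e-14 to 0.868 for ANGPTL4. With every library kept, the scaling also changed the call. STC2 passed with upper quartile factors, DESeq2 and limma on log2(TPM + 1) (adjusted p = 0.033, 0.0227 and 0.0212). ANGPTL4 passed with limma on log2(TPM + 1) (adjusted p = 0.0409) and stood at 0.052 with the GC and length trend removed. Per length, STC1 made up 30.8% ± 2.82 of the summed TPM of STC1 and STC2 in A549 and 68.02% ± 1.22 in H23 (SD, n = 3 each, exact two-sided permutation p = 0.1), and H23 replicate 1 did not stand apart in this share.

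The carbonic anhydrases CA12 and CA9 both rose in A549. Both enzymes sit on the cell surface and help to export acid. CA12 stood at 416, 411 and 405 CPM in A549 and at 1.82, 2.07 and 2.80 CPM in H23, giving a log2 fold of 7.51 ± 0.18 (n = 3 each, edgeR adjusted p = 2.74e-07). CA9, one of the most oxygen-dependent HIF targets known, was near the detection floor, at 0.956, 1.24 and 1.25 CPM in A549 and 0.0264, 0.134 and 0.0941 CPM in H23. These H23 levels rest on 1, 4 and 4 counts, against 23, 31 and 29 counts in A549, and the log2 fold of 3.74 ± 0.42 (edgeR adjusted p = 0.000164) is correspondingly loose. Per length CA9 was 0.821% ± 0.128 of the summed TPM of CA9 and CA12 in A549 and 9.32% ± 5.33 in H23 (SD, n = 3 each). Of the RNA of this pair, most was CA12 in either line.

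CA12 was also the member whose transcripts changed. Of 13 members with at least 2 measurable transcripts, CA12 was the only call in edgeR's test of transcript usage (adjusted p = 1.9e-05), against 25.8% of 7539 tested genes. The RefSeq transcript NM_001218, of 4209 bases, made up 89.5%, 93.2% and 91.3% of CA12 TPM in the A549 libraries, and 0%, 0% and 9.82% in H23 replicates 1, 2 and 3. Most of the remainder in H23 was divided between NM_206925, of 4176 bases, at 63.2%, 34.9% and 42.0%, and NM_001293642, of 3996 bases, at 36.8%, 65.1% and 45.5%. In A549 NM_206925 held 5.95% ± 1.70 and NM_001293642 1.73% ± 0.600 of CA12 TPM (SD, n = 3). The H23 shares rest on few reads, with 44, 22 and 50 estimated counts of NM_206925 and 25, 40 and 52 of NM_001293642, while A549 held 8549 to 9550 counts of NM_001218. The counts of 0 for NM_001218 in H23 replicates 1 and 2 allow shares of up to 4.35% and 4.84% of CA12 counts. The division of reads among overlapping transcripts is RSEM's estimate and its error is not in the test. Without H23 replicate 1, 4 of 14 tested members were called for usage, CA12, ANGPTL4, P4HA2 and PLOD1, beside 29.6% of all genes. Without A549 replicate 3 there were 3 of 16, CA12, EGLN2 and LOX, beside 17.9%. Leaving out A549 replicate 2 added ARNT, with 18.7% of all genes called, and leaving out H23 replicate 3 added NDRG1, with 25.1%.

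**Figure D3:**
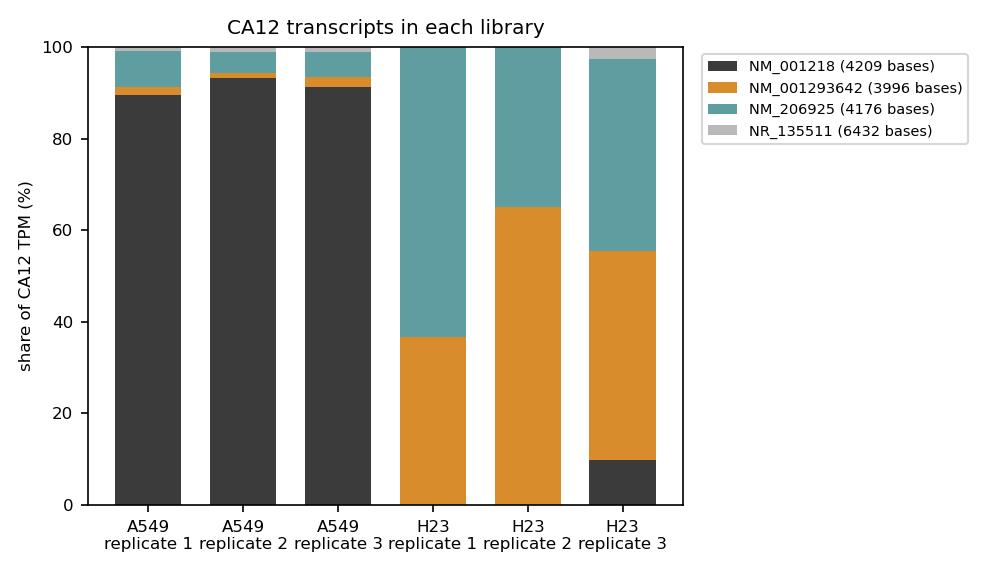
Share of CA12 TPM held by each RefSeq transcript in each library, in percent, stacked to the whole. NM_001218 fills 89.5% to 93.2% of the A549 bars and 0% to 9.82% of the H23 bars.

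The collagen-modifying enzymes differed in both directions. PLOD2, the lysyl hydroxylase of collagen telopeptides, stood at 435, 435 and 428 CPM in A549 and at 28.1, 18.6 and 23.2 CPM in H23 (n = 3 each, log2 4.21 ± 0.16, edgeR adjusted p = 1.51e-06, or 3.01 with the GC and length trend removed). PLOD1, the lysyl hydroxylase of the collagen helix, went the other way, at 105, 107 and 112 CPM in A549 and 208, 364 and 370.1 CPM in H23 (log2 -1.54 ± 0.22, edgeR adjusted p = 0.000553, or -0.93 with that trend removed). PLOD1 accordingly made up 25.3% ± 0.778 of the summed TPM of the pair in A549 and 94.3% ± 2.93 in H23 (SD, n = 3 each, exact two-sided permutation p = 0.1).

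Of the prolyl 4-hydroxylase subunits and lysyl oxidases, P4HA1 and LOX fell in A549, and P4HA2 and LOXL2 did not pass. P4HA1, a catalytic subunit of collagen prolyl 4-hydroxylase, stood at 51.0, 49.3 and 47.1 CPM in A549 and 85.4, 119 and 139 CPM in H23 (log2 -1.22 ± 0.18, edgeR adjusted p = 0.000595). Its sister subunit P4HA2 did not pass (log2 0.03 ± 0.25, edgeR adjusted p = 0.928, with 8.22e-05 to 0.931 across the alternatives). P4HA2 stood at 62.8, 64.5 and 62.9 CPM in A549 and at 37.7, 74.4 and 74.6 CPM in H23, so H23 replicate 1 lay below and the other H23 libraries above A549. P4HA2 was called in either direction by alternatives. Leaving out H23 replicate 1 gave a log2 fold of -0.24 (edgeR adjusted p = 8.22e-05), and removing the GC and length trend gave 0.53 (edgeR adjusted p = 0.0424). P4HA1 was 36.3% ± 1.01 of the summed TPM of the subunit pair in A549 and 58.2% ± 4.26 in H23 (SD, n = 3 each, exact two-sided permutation p = 0.1). LOX, the oxidase that crosslinks collagen and elastin, was low in both lines, at 0.332, 0.479 and 0.345 CPM in A549 and 3.94, 5.48 and 5.84 CPM in H23 (log2 -3.70 ± 0.26, edgeR adjusted p = 1.77e-05). Its relative LOXL2 was far more abundant and did not pass, at 179, 176 and 193 CPM in A549 and 159, 263 and 272 CPM in H23 (log2 -0.34 ± 0.20, edgeR adjusted p = 0.161). Without H23 replicate 1 LOXL2 was lower in A549, with a log2 fold of -0.55 (edgeR adjusted p = 2.42e-11, with 2.42e-11 to 0.403 across the alternatives).

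**Figure D4:**
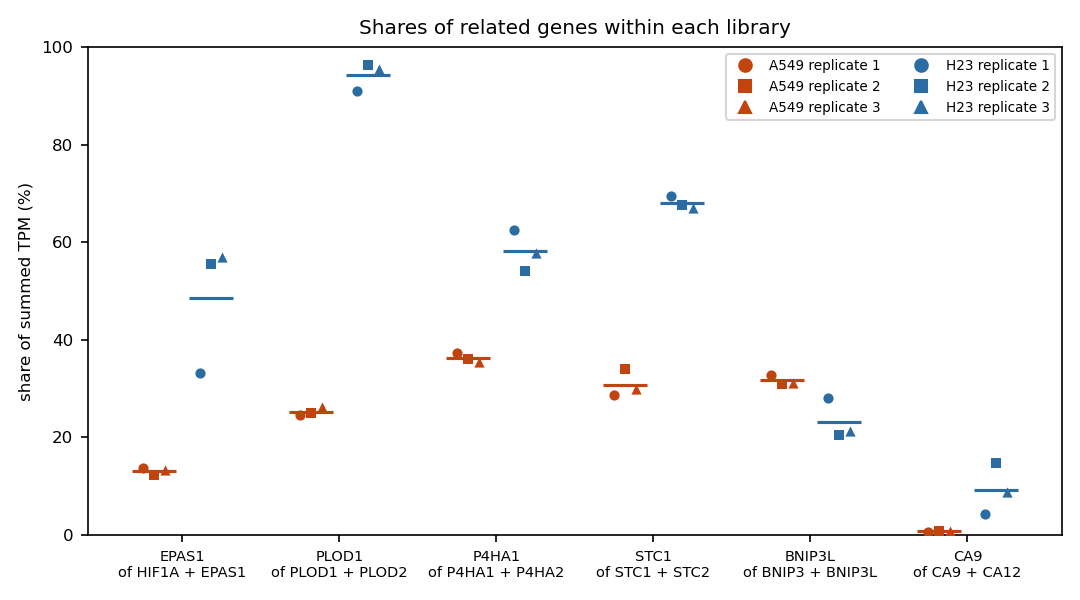
Share of summed TPM held by the first-named gene of each pair, in percent, with 1 symbol per library and lines at the mean of the line. PLOD1 averages 25.3% in A549 and 94.3% in H23, and the EPAS1 share of H23 replicate 1, 33.2%, lies between A549 and the other H23 libraries.

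The 3 mitochondrial targets were all lower in A549, as were 39.6% of all tested genes. FAM162A, a HIF-responsive gene of mitochondrial cell death, stood at 21.8, 22.2 and 22.4 CPM in A549 and at 153, 144 and 150.2 CPM in H23 (n = 3 each, log2 -2.75 ± 0.08, edgeR adjusted p = 4.4e-07). It was among the steadiest members within H23, and the fold was -3.71 with the GC and length trend removed. BNIP3, a receptor for the removal of mitochondria, stood at 67.9, 70.1 and 65.6 CPM in A549 and 147, 172 and 188 CPM in H23 (log2 -1.32 ± 0.11, edgeR adjusted p = 3.64e-05). BNIP3L, its close relative with the same role, stood at 75.9, 72.3 and 67.7 CPM in A549 and 131, 100.1 and 116 CPM in H23 (log2 -0.68 ± 0.12, edgeR adjusted p = 0.00136, or -1.39 with that trend removed). BNIP3L made up 31.7% ± 1.05 of the summed TPM of the pair in A549 and 23.2% ± 4.17 in H23 (SD, n = 3 each, exact two-sided permutation p = 0.1).

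Of 7 nuclear and signalling targets, 6 were lower in A549 and none higher, where 39.6% of all tested genes were lower and 37.6% higher. KDM3A, a histone demethylase that is induced by HIF, stood at 38.2, 36.9 and 38.2 CPM in A549 and at 129, 164 and 175 CPM in H23 (n = 3 each, log2 -2.05 ± 0.13, edgeR adjusted p = 1.04e-05). ANKRD37, an ankyrin repeat gene used in hypoxia signatures, stood at 1.16, 0.759 and 1.08 CPM in A549 and at 10.8, 22.9 and 24.5 CPM in H23 (log2 -4.28 ± 0.39, edgeR adjusted p = 5.95e-05). TMEM45A, a transmembrane protein gene, gave the widest difference of the group, at 0.956, 0.959 and 1.42 CPM in A549 and 14.8, 24.8 and 28.4 CPM in H23 (log2 -4.35 ± 0.32, edgeR adjusted p = 2.14e-05). For these 3 genes each A549 library lay far below each H23 library, H23 replicate 1 included. MXI1, an antagonist of MYC, stood at 10.1 to 10.6 CPM in A549 and 18.3 to 20.2 CPM in H23 (log2 -0.91 ± 0.09, edgeR adjusted p = 0.000114).

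The remaining members of that group lay closer to the threshold. NDRG1, a stress-responsive gene of cell differentiation, stood at 63.7, 65.3 and 63.5 CPM in A549 and at 70.5, 167 and 174 CPM in H23 (log2 -1.10 ± 0.32, edgeR adjusted p = 0.0166, with 3.46e-20 to 0.0841 across the alternatives). DDIT4, which encodes the mTOR inhibitor REDD1, stood at 140.0, 134 and 131 CPM in A549 and at 144, 264 and 306 CPM in H23 (log2 -0.82 ± 0.26, edgeR adjusted p = 0.0219, with 8.36e-14 to 0.482 across the alternatives). For both genes H23 replicate 1 came close to the A549 libraries without overlapping them. The DDIT4 call was lost without A549 replicate 1, 2 or 3 (edgeR adjusted p = 0.0591, 0.0645 and 0.0726) and without H23 replicate 2 or 3 (0.0657 and 0.0667). The NDRG1 call was lost without A549 replicate 1 or 3 (0.0544 and 0.0562) and without H23 replicate 2 or 3 (0.0548 and 0.0533), and with the GC and length trend removed DDIT4 stood at -0.18 and NDRG1 at -0.51 (edgeR adjusted p = 0.41 and 0.0841). BHLHE40, a circadian repressor also induced by HIF, did not pass, at 92.2 to 99.9 CPM in A549 and 91.7 to 119.9 CPM in H23, and the libraries overlapped (log2 -0.18 ± 0.12, edgeR adjusted p = 0.201).

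Within H23, most of the response genes stood lowest in the same library. In H23 replicate 1, 26 of 31 members stood at their lowest H23 level and 5 at their highest, while over all tested genes 43.7% were at their lowest and 43.8% at their highest there. In that library 13 members lay more than 1.5-fold below the mean of the other 2 H23 libraries and 1 lay above, where all tested genes gave 10.5% below and 17.2% above. The members' median deviation was -0.46 on the log2 CPM scale, against 0 for all genes. In H23 replicate 2, 4 members were above and 1 below that limit (3.56% and 8.63% of all genes), and in H23 replicate 3, 6 were above and 0 below (4% and 6.94%). No member passed the limit in any A549 library, where all genes gave 3.09%, 2.92% and 3.39% above and 3.46%, 3.55% and 3.03% below in replicates 1, 2 and 3. One library has no replicate of its own, so these are values without a test.

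The members that stood low in H23 replicate 1 had several roles. ANGPTL4, STC2, NDRG1 and STC1 deviated there by -1.39, -1.34, -1.28 and -1.21 on the log2 CPM scale, and ANKRD37 by -1.13. DDIT4, P4HA2, VEGFA, TMEM45A, PLOD1, LOXL2 and P4HA1 deviated by -0.98, -0.98, -0.86, -0.84, -0.82, -0.75 and -0.59. CA9 deviated by -1.59, on 1 count. The 5 members at their highest in that library were HIF1A (0.94), EGLN3 (0.51), PLOD2 (0.44), BNIP3L (0.28) and FAM162A (0.06). HIF1A thus stood high in the H23 library where most of its known targets stood low.

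**Figure D5:**
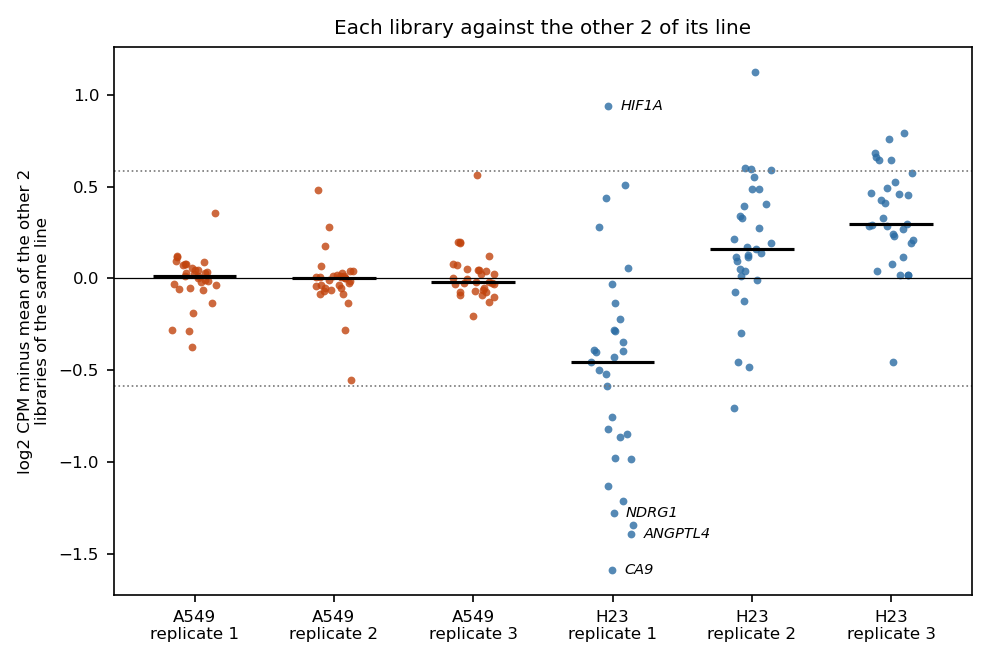
Each point is 1 of the 31 genes, plotted as its log2 CPM in a library minus the mean of the other 2 libraries of the same line; black bars are medians and dotted lines mark 1.5-fold. The A549 libraries centre on 0, and H23 replicate 1 centres on -0.46 with HIF1A at 0.94.

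H23 replicate 1 also differed in base composition. The count-weighted GC content of the libraries was 49.1% to 49.3% in A549, 49.3% in H23 replicate 1 and 50.7% and 50.6% in H23 replicates 2 and 3. In GENCODE transcripts, the GC content of the 13 members far below in that library spanned 37.7% (TMEM45A) to 63.3% (ANGPTL4), and that of the 5 members at their highest there spanned 34.4% (PLOD2) to 49.4% (EGLN3). With a trend of each library with GC content and length removed, 12 members lay more than 1.5-fold below in H23 replicate 1 and 1 above, beside 6.51% and 11.8% of all genes. The members' median deviation was then -0.38, against 0.05 over all genes. At their lowest H23 level were 26 members, beside 37.8% of all genes. The members far below were not all the same as before the removal. VEGFA (-0.51), PLOD1 (-0.40) and LOXL2 (-0.33) no longer passed the 1.5-fold limit, and LOX (-0.98) and FAM162A now did. HIF1A deviated by 0.25 after that removal and EGLN3 by 0.74, and PLOD2, BNIP3L and FAM162A turned to -0.38, -0.21 and -0.67. The part of base composition in what remained was not tested further.

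Set against each H23 library alone, the members' median log2 fold of the A549 mean was -0.10 for H23 replicate 1, -0.94 for replicate 2 and -0.96 for replicate 3, with all-gene medians between -0.03 and -0.01. At least 2-fold lower in A549 were 8 members against H23 replicate 1, 13 against replicate 2 and 15 against replicate 3, beside 25.6%, 25.8% and 26.1% of all genes. The 7 members at least 2-fold higher in A549 numbered the same against each H23 library, beside 23.2%, 26.6% and 25.9% of all genes. The sign of the difference was the same against all H23 libraries except for P4HA2, LOXL2, ANGPTL4, STC2 and BHLHE40, for which A549 stood higher than H23 replicate 1 and lower than the other H23 libraries.

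Regulators of HIF outside the members were divided between the lines. Of 18 tested, 5 passed on the A549 side and 10 on the H23 side, with a median log2 fold of -0.49, where all tested genes gave 37.6% and 39.6% with a median of -0.03. ARNT2, a relative of ARNT that can pair with HIF alpha subunits, averaged 50.1 ± 3.06 CPM across A549 libraries and 2.87 ± 0.851 CPM across H23 libraries (SD, n = 3 each, log2 4.13 ± 0.22, edgeR adjusted p = 4.81e-06), opposite to ARNT. CITED2, which competes with HIF for its coactivators, averaged 5.92 ± 0.605 CPM across A549 libraries and 51.1 ± 6.86 CPM across H23 libraries (log2 -3.11 ± 0.15). The coactivator EP300 was also lower in A549 (log2 -2.05 ± 0.13), as was the LIM protein gene FHL1 (log2 -3.79 ± 0.22). CITED4 and the ubiquitin ligase gene SIAH1 rose in A549 (log2 1.34 ± 0.21 and 0.95 ± 0.09).

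Of 34 other HIF targets outside glycolysis, 10 passed on the A549 side and 20 on the H23 side, with a median log2 fold of -0.72. All tested genes gave 37.6% and 39.6%, with a median of -0.03. EDN1, which encodes the vasoconstrictor endothelin, averaged 103 ± 0.984 CPM across A549 libraries and 1.74 ± 0.121 CPM across H23 libraries (SD, n = 3 each, log2 5.87 ± 0.10, edgeR adjusted p = 1.11e-07). The transcription factor gene KLF7 was also higher in A549 (log2 2.29 ± 0.18). NRN1, the chemokine receptor gene CXCR4 and PPFIA4 were lower in A549, with log2 folds of -6.40 ± 0.68, -6.30 ± 0.63 and -4.64 ± 0.29. In H23 replicate 1, 26 of the 34 stood at their lowest H23 level and 12 lay more than 1.5-fold below the other H23 libraries. Over all tested genes the shares were 43.7% and 10.5%. Of 19 glycolysis genes, 4 passed on the A549 side and 13 on the H23 side, beside 37.6% and 39.6% of all tested genes. All 19 stood at their lowest H23 level in replicate 1, beside 43.7% of all tested genes.

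The tested ligand and receptor genes of VEGF and adrenomedullin were also unequal between the lines. Of 9 tested genes of the VEGF and adrenomedullin ligands and receptors, 4 passed on the A549 side and 5 on the H23 side. All tested genes gave 37.6% and 39.6%. The VEGF co-receptors NRP2 and NRP1 were at 192 ± 16 and 512 ± 4.74 CPM in A549 and at 1.19 ± 0.207 and 6.33 ± 0.550 CPM in H23 (SD, n = 3 each, log2 7.34 ± 0.17 and 6.34 ± 0.11, edgeR adjusted p = 2.25e-07 and 1.06e-07). CALCRL, a component of the adrenomedullin receptors, was below 1 CPM in both lines (log2 3.05 ± 0.49). The VEGF receptor genes KDR and FLT1 were too low to be tested. KDR stood at 0 TPM in A549 and 0 to 0.01 TPM in H23, and FLT1 at 0 to 0.01 and 0.02 to 0.07 TPM. RAMP3, of the same list, was at 0 in every library. The ligand genes ADM2 and PGF were lower in A549, with log2 folds of -4.16 ± 0.23 and -2.91 ± 0.20, as was the receptor gene FLT4 (log2 -1.40 ± 0.19).

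Relatives of the collagen-modifying members went both ways, with 4 of 12 on the A549 side and 7 on the H23 side. All tested genes gave 37.6% and 39.6%. LOXL4 and P4HA3 were higher in A549 (log2 5.88 ± 0.27 and 4.22 ± 0.14), as was the prolyl 3-hydroxylation cofactor gene CRTAP (log2 0.70 ± 0.11). LOXL1, LOXL3 and PLOD3 were lower in A549 (log2 -4.77 ± 0.27, -1.50 ± 0.25 and -1.30 ± 0.12). Of 17 other relatives, 8 passed on the A549 side and 7 on the H23 side, beside the same shares of all tested genes. BHLHE41, the sister gene of BHLHE40, fell to 0.139 ± 0.0645 CPM in A549, against 47.6 ± 9.11 CPM in H23 (SD, n = 3 each, log2 -8.38 ± 0.29, edgeR adjusted p = 9.66e-07). The cytosolic carbonic anhydrase genes CA2 and CA13 were lower in A549, opposite to CA12 and CA9, with log2 folds of -4.23 ± 0.22 and -3.76 ± 0.45. NDRG4, JMJD1C and BNIP2 rose in A549 (log2 3.20 ± 0.12, 2.71 ± 0.54 and 1.88 ± 0.20). H23 replicate 1 stood apart for JMJD1C, at 19.1 CPM against 4.7 and 5.2 CPM in H23 replicates 2 and 3. For BNIP2 these levels were 60.0, 36.8 and 37.6 CPM.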

How the data were processed

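The 6 RNA-seq libraries comprised 3 independent cultures each of A549 and H23, grouped and numbered by their labels. The submitters' processing notes name STAR 2.6.0c, RSEM 1.3.0 and hg19, and the labels name a stranded kit with ribosomal depletion. Options, annotation release and strand setting of the counting are not given in the sources used here, so reads of HIF1A, BHLHE40 and P4HA2 may include those of their antisense genes. Per the file headers, each deposited gene or transcript row holds an expected count, the number of reads RSEM assigned. Deposited TPM values are scaled for length and depth, per the file headers, and the deposited FPKM values and percent values (each transcript's share of its gene) were not used. The deposited lengths, in bases, are RSEM's. Promoter sequences and GC content come from RefSeq and GENCODE on GRCh38, another build than the files, so no position of a read is given.

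Expected counts were rounded and fitted with edgeR 4.0.16 in R 4.3.3 (TMM factors, default filterByExpr, robust quasi-likelihood F test, Benjamini-Hochberg adjustment over 15426 genes, threshold 0.05). Approximate standard errors were taken as |log2 fold| divided by the root of F. For transcript usage, diffSpliceDGE of edgeR was run on 24779 transcripts of 7539 genes. Levels across libraries are TMM-normalised CPM, and levels between genes are TPM. Alternatives used DESeq2 1.42.0, limma 3.58.1, other scalings, no filter, a GC and length trend taken out by library (splines), a replicate block and the omission of each library. Both tests were tested on simulated data. Within each line, all library pairs differed beyond counting noise (lowest chi-square per gene 3.72). Floors of 3 counts cover counting error only.

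The members and gene lists were chosen with earlier results of these data known. All members are described, and up to 3 genes per direction were named from each other list. These were ranked by size of log2 fold within those passing the test. Glycolysis and marker lists are given as summaries. KDR, FLT1 and RAMP3, which were too low to be tested, are named besides. In the named lists, 1 gene is not reported here.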

Additional observations from a re-analysis of the deposited data

How the results depend on the processing

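Of the 31 members, 21 kept their direction and their side of the threshold under all 15 alternatives. The exceptions were ADM, ANGPTL4, BHLHE40, DDIT4, EPAS1, LOXL2, NDRG1, P4HA2, STC2 and VHL. On log2(TPM + 1) and log2(TPM + 0.1), ADM stood at -0.19 and -0.20, EPAS1 at -0.27 and -0.28 and P4HA2 at -0.44 and -0.45, none past limma's test. P4HA2 was -0.10 with upper quartile factors, -0.24 without H23 replicate 1 (past the test), and 0.53 and 0.58 (past the test) with the GC and length trend removed, without and with the replicate block. EPAS1 was 0.58 under both of these, past the test. With the GC and length trend removed, and with that plus the replicate block, ANGPTL4 stood at 0.052 and 0.13, LOXL2 at 0.17 and 0.18 and BHLHE40 at 0.38 and 0.38, the last past the test (edgeR adjusted p = 0.000437 and 0.00266, in a range of 5.18e-06 to 0.479). Genes called higher in A549 numbered 3862 on log2(TPM + 0.1), against 5801. The gene with the most TPM (RNA5-8SN4 or RMRP) held 11.4% to 13.3% of an A549 library, against 1.99% to 2.88% for the top gene of an H23 library, and its part was not tested. Omitting 1 library gave 1 to 4 members called for transcript usage and moved the EGLN3 share difference between -0.95 and 0.18 percentage points. With a 2-fold limit between libraries, 6 members lay past it in H23 replicate 1, 1 in replicate 2 and 0 in replicate 3. With the GC and length trend removed, an alternative chosen after seeing the data, 1 passed the 1.5-fold limit in A549 replicate 3. Shares of all genes are not set beside these counts, which are therefore not read as a result about the members. Replicate numbers did not pair the libraries, with correlations of deviations of 0.01, -0.02 and 0.03 for numbers 1, 2 and 3. The replicate block gave 9 members higher in A549 and 16 higher in H23, as without it, beside 37.6% and 38.2% of all genes. CA12 was the only member called for usage with that block. Depth limits CA9, LOX, the CA12 transcripts of H23, BHLHE41, CA13, CXCR4, NRN1, CALCRL, LOXL1, LOXL4, ADM2 and LUM. Each had under 10 counts in at least 1 library. The exact tests of shares cannot go below 0.1.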
